A study of Mus musculus with 8 samples.

Results

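The genes examined here encode 10 proteins of prostaglandin and leukotriene synthesis in macrophages: *Pla2g4a*, *Pla2g7*, *Ptgs1*, *Ptgs2*, *Ptges*, *Hpgds*, *Alox5*, *Alox5ap*, *Lta4h* and *Ltc4s*. They were picked by symbol as genes of the pathway, with earlier results of these data known, and are 10 of the 53819 genes in the deposited count table. RNA was sequenced from bone marrow-derived macrophages (BMDM) of 4 female BALB/cJ mice aged 8 weeks. BMDM are bone marrow cells turned into macrophages in culture, here by the growth factor M-CSF at 25 ng/mL over 5 days. The cells of each mouse were then given 2.5 µM bilirubin, a breakdown product of heme, or its vehicle DMSO for 48 h, which gave 4 vehicle and 4 bilirubin libraries. The study concerns heme metabolites in breast cancer, and this comparison asked how bilirubin changes gene expression in macrophages. Each bilirubin library was compared with the vehicle library of the same mouse. All cultures received M-CSF, no genotype was altered, and 1 strain, sex and dose were used.

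Eicosanoids are short-range lipid signals made from arachidonic acid. A phospholipase A2 frees arachidonic acid from membranes, and the cyclooxygenases convert it to PGH2, which terminal synthases turn into PGE2, PGD2, thromboxane or prostacyclin. In a parallel branch, 5-lipoxygenase and its partner FLAP make LTA4, which becomes the neutrophil attractant LTB4 or the cysteinyl leukotriene LTC4. Resting macrophages carry COX-1 and hematopoietic PGD2 synthase, whereas COX-2 and the inducible PGE2 synthase are classic genes of the inflammatory response.

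With bilirubin, *Ptges*, *Pla2g7* and *Ptgs2* rose and *Hpgds* fell. Thus 4 of the 10 genes passed the threshold of an adjusted p of 0.05 in edgeR's quasi-likelihood test, against 7.53% of the 13722 genes with enough counts to be tested. In the upward direction 3 of 10 genes passed, against 4.49% of all tested genes, and in the downward direction 1 of 10, against 3.04%. All 10 genes passed the filter on low counts, and 8 had an unadjusted p under 0.05, against 20.8% of all tested genes. Their median log2 fold change, always bilirubin over vehicle, was 0.11, and that of all tested genes was -0.0018. The CPM of the 4 vehicle and the 4 bilirubin libraries did not overlap for *Pla2g7*, *Ptges*, *Alox5ap* and *Ltc4s*, or 4 of 10 genes, against 10.6% of all tested genes. CPM is a count scaled to the size of the library, here with edgeR's TMM factors for differences in library composition. The change was not even over the mice: the calls of *Ptgs2* and *Hpgds* each depended on mice 2, 3 and 4, as given with those genes, whereas *Ptges* and *Pla2g7* passed without any single mouse.

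Libraries held 34142766 to 47071686 counts on genes, and the extremes were the bilirubin and the vehicle library of mouse 1. The spread is given as the SD over 4 mice, and counting error was not separated from it. Markers of macrophages were abundant, with all 10 of 10 tested and a summed level of 30839 to 31036 TPM (a level scaled for library size and transcript length) in vehicle and 34622 to 38505 TPM in bilirubin libraries. Most of that sum was *Lyz2*, at 25985 TPM with vehicle and 32048 TPM with bilirubin. Of the 10 markers 4 rose and 1 fell, and their median log2 fold change was -0.08. Mast cells and basophils, which also use these enzymes, left little trace: 0 of 10 of their markers had enough counts to be tested, 6 of 10 were at 0 in every library, among them *Tpsb2*, *Mcpt4* and *Fcer1a*, and the sum was at most 1.17 TPM. For neutrophils, 1 of 3 tested markers rose, *S100a8*, with a summed level of 52.9 to 64.03 TPM in vehicle and 92.2 to 149 TPM in bilirubin libraries, while *Retnlg* was at 0 and *Ly6g* and *Camp* were at or near 0. For platelets and their precursors, 1 of 2 tested markers fell, *Pf4*, which macrophages also express, and the sum was 194 to 234 TPM in vehicle and 132 to 155 TPM in bilirubin libraries. No marker of dendritic cells (0 of 8) or B and T lymphocytes (0 of 7) had enough counts to be tested, while 2 of 7 eosinophil and 2 of 8 stromal markers were tested and 0 passed by edgeR, with an unadjusted p under 0.05 for 0 and 1 of them. The part of these marker shifts in the results was not tested, and in bulk RNA fewer cells of a type and less RNA per cell cannot be told apart.

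The stretches from 250 bases before to 50 bases after the start of the 4 genes that passed and of *Ptgs1*, the constitutive counterpart of *Ptgs2*, are shown because they let the start regions of genes that rose, fell or did not pass be compared. They are RefSeq sequences in build GRCm38.p6, written 5′ to 3′ on the strand of the gene, and capitals mark matches to the motifs listed after them.
Ptges, chr2:30903248-30903547, minus strand: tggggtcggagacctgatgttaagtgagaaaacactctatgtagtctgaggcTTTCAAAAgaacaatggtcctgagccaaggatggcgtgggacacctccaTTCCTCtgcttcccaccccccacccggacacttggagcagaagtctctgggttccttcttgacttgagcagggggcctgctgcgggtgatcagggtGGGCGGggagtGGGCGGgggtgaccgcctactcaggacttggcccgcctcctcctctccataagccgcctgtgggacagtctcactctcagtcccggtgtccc
Ptgs2, chr1:150099781-150100080, plus strand: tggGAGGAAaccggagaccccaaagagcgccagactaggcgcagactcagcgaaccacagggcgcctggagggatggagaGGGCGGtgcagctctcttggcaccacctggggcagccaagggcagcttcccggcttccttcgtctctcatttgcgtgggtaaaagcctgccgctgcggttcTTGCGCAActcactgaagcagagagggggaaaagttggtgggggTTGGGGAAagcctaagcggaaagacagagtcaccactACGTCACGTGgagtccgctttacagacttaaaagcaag
Ptgs1, chr2:36230176-36230475, plus strand: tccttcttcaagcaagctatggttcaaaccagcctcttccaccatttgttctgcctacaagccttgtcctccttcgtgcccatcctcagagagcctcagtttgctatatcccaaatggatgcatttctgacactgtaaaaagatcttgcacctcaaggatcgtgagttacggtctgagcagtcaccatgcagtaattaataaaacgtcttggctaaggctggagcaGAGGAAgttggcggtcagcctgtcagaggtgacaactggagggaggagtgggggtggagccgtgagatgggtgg
Hpgds, chr6:65144681-65144980, minus strand: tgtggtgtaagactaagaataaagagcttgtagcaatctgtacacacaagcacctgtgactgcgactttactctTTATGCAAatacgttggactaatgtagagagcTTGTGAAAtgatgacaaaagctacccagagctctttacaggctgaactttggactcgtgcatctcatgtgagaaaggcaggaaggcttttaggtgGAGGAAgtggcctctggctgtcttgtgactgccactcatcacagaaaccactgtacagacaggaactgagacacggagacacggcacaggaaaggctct
Pla2g7, chr17:43568201-43568500, plus strand: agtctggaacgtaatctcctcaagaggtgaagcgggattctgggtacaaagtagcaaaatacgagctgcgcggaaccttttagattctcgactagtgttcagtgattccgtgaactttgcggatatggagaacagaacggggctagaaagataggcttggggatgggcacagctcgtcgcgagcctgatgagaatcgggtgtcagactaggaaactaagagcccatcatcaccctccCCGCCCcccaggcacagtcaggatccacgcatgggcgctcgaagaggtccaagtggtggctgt

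Motifs of 8 kinds were searched on both strands. The letters TTNNGNAA, bound by the C/EBP family, were in 40.7% of all 32851 RefSeq windows of this length. The cyclic AMP response element (CRE), searched as TGACGT, was in 7.51% of the windows. The AP-1 motif was searched as TGANTCA and was in 7.81% of the windows. An E-box was searched as CACGTG and was in 7.15% of the windows. The GC box was searched as GGGCGG and was in 35.7% of the windows. The macrophage factor PU.1 was searched as GAGGAA, in 28.3% of the windows, and the TATA box as TATAAA, in 13.6%. The NF-κB consensus was in 4.51% of the windows. A window was found for 9 of the 10 genes, all but *Alox5ap*, with a pair of windows for *Pla2g4a*. Positions are counted from the start of the gene in RefSeq. Where transcription began in these cells was not examined, and it can differ from that start. The *Ptgs2* window held the most matches. They were a C/EBP match at bases -69 to -62, which reads the same on both strands, another at -25 to -18, a GC box at -170, a PU.1 match at -247, and a CRE at 13 to 18 that overlapped an E-box at 17 to 22. The *Ptges* window held GC boxes at -53 and -42, a C/EBP match at -198 and a PU.1 match at -149. That of *Hpgds*, the gene that fell, had C/EBP matches at -176 and -144 and a PU.1 match at -49, while *Ptgs1* had 1 PU.1 match, at -24, and *Pla2g7* 1 GC box, at -13. No window of the 9 genes matched the NF-κB consensus or AP-1, and a TATA match was found in 1 of the *Pla2g4a* windows only. These letters are descriptions of the windows and say nothing of binding.

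Levels differed over more than 2 orders of magnitude between the genes. In vehicle cultures *Alox5ap*, which encodes FLAP, was highest at 659 ± 9.83 TPM (SD, n = 4), and over all libraries its mean TPM was at or above that of 99.2% of genes with any signal. *Pla2g7* followed at 312 ± 25.1 TPM (SD, n = 4). *Hpgds* (68.9 ± 6.66 TPM) and *Lta4h* (65.8 ± 0.543 TPM) were next and did not differ beyond their spread. Below them came *Pla2g4a* (45.6 ± 5.05 TPM), *Ptgs1* (30.8 ± 5.76 TPM), and then *Ltc4s* (18.2 ± 1.94 TPM) and *Alox5* (17.3 ± 4.11 TPM), the last pair again not separated. *Ptges* (3.74 ± 0.686 TPM) and *Ptgs2* (1.21 ± 0.352 TPM) were lowest. With bilirubin *Ptges* reached 13.1 ± 4.78 TPM (SD, n = 4), in the range of *Ltc4s* (13.7 ± 1.20 TPM) and *Alox5* (17.8 ± 4.40 TPM), and *Hpgds*, at 50.5 ± 12.9 TPM, was no longer separated from *Pla2g4a* at 44.9 ± 8.23 TPM. *Ptgs2* stayed the lowest, at 2.34 ± 1.08 TPM (SD, n = 4).

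**Figure D1:**
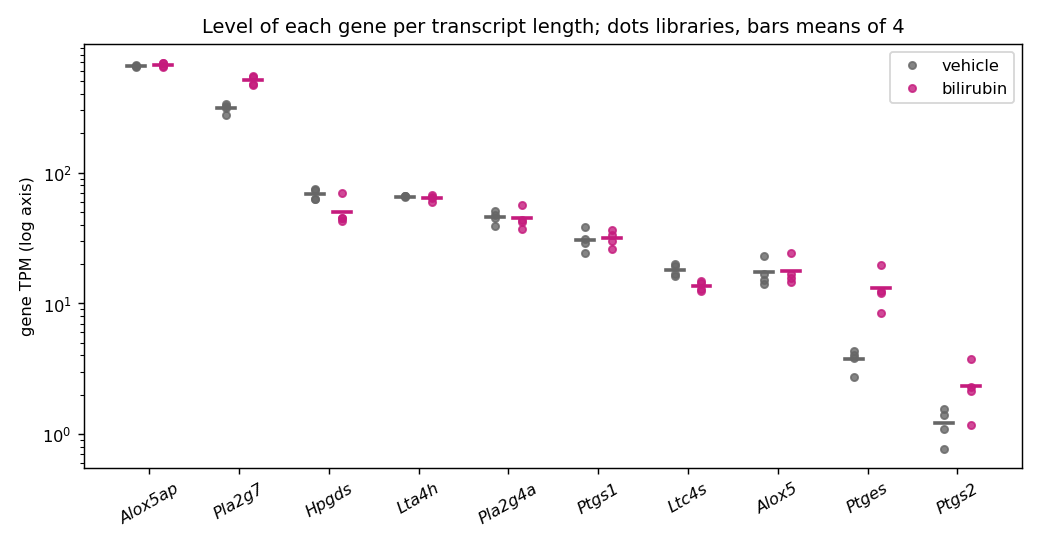
Gene TPM of the 10 genes on a log axis, ordered by their vehicle mean, with 1 dot per library and a bar for the mean of 4 libraries, vehicle in grey and bilirubin in magenta. *Alox5ap* stands at the top, with vehicle and bilirubin means of 659 and 670 TPM, and *Ptges* moves from 3.74 to 13.1 TPM.

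Of the phospholipases, *Pla2g4a* (ENSMUSG00000056220, chromosome 1, 149705369 to 149837053, minus strand, GRCm39), the cytosolic enzyme that frees arachidonic acid, did not pass. Its CPM in mice 1 to 4 was 66.5, 77.2, 71.6 and 71.4 with vehicle and 59.2, 76.1, 77.0 and 76.4 with bilirubin. It was lower with bilirubin in mice 1 and 2 and higher in mice 3 and 4, with the lowest value in the bilirubin library of mouse 1. Its log2 fold change was 0.0043, with a 95% interval from -0.11 to 0.12 (edgeR adjusted p = 0.982).

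*Pla2g7* (ENSMUSG00000023913, chromosome 17, 43878846 to 43923289, plus strand) encodes a secreted phospholipase, also called PAF acetylhydrolase, which breaks down platelet-activating factor and oxidized phospholipids rather than releasing arachidonic acid. Its CPM was 358, 398, 388 and 329 with vehicle and 538, 691, 653 and 612 with bilirubin. Every bilirubin library was above every vehicle library, and the rise was similar in the 4 mice, from 0.59 to 0.89 on the log2 scale. On the log2 scale the change was 0.76 ± 0.049 (SE), or 1.69-fold (edgeR adjusted p = 8.8e-05), and it passed in 13 of 13 alternative settings. The transcript Pla2g7-201, which codes for protein, held 90.8% of the TPM of the gene with vehicle and 90.9% with bilirubin.

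The cyclooxygenases differed. *Ptgs1* (ENSMUSG00000047250, chromosome 2, 36120438 to 36142287, plus strand), the constitutive COX-1, was measured at 47.7, 52.6, 40.2 and 36.7 CPM with vehicle and 48.6, 55.0, 45.6 and 42.3 CPM with bilirubin. Each bilirubin library was a little above the vehicle library of its mouse, and the groups overlapped widely. Its log2 fold change of 0.12 (95% interval 0.013 to 0.22) did not pass (edgeR adjusted p = 0.188).

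*Ptgs2* (ENSMUSG00000032487, chromosome 1, 149975194 to 149983978, plus strand), the inducible COX-2, was measured at 2.76, 3.87, 3.03 and 2.12 CPM with vehicle, from 131 to 146 counts in the libraries of mice 1 to 3 and 90 in that of mouse 4. With bilirubin it was at 3.14, 6.62, 10.7 and 6.25 CPM, from 109, 239, 431 and 251 counts. The bilirubin libraries of mice 2, 3 and 4 were above every vehicle library, but that of mouse 1 was not, so the groups overlapped. The log2 fold change was 1.11 ± 0.25 (SE), or 2.16-fold (95% interval on the log2 scale 0.53 to 1.69, edgeR adjusted p = 0.0346), and was 0.18, 0.77, 1.81 and 1.54 in mice 1 to 4. The call was lost without mouse 2 (edgeR adjusted p = 0.0883), mouse 3 (0.214) or mouse 4 (0.181), and with an offset for transcript length (0.220), while without mouse 1 the log2 fold change was 1.39. In the vehicle library of mouse 1, 37.0% of the TPM of *Ptgs2* was assigned to the short transcript Ptgs2-202, which was at 0 in the other 7 libraries. Exons of 8 of the 10 genes, all but *Pla2g4a* and *Lta4h*, overlap a gene on the opposite strand, *Ptgs2os* in the case of *Ptgs2*. Whether counting used strand is not given in the sources used here, and without strand the reads of such partners cannot be told apart.

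**Figure D2:**
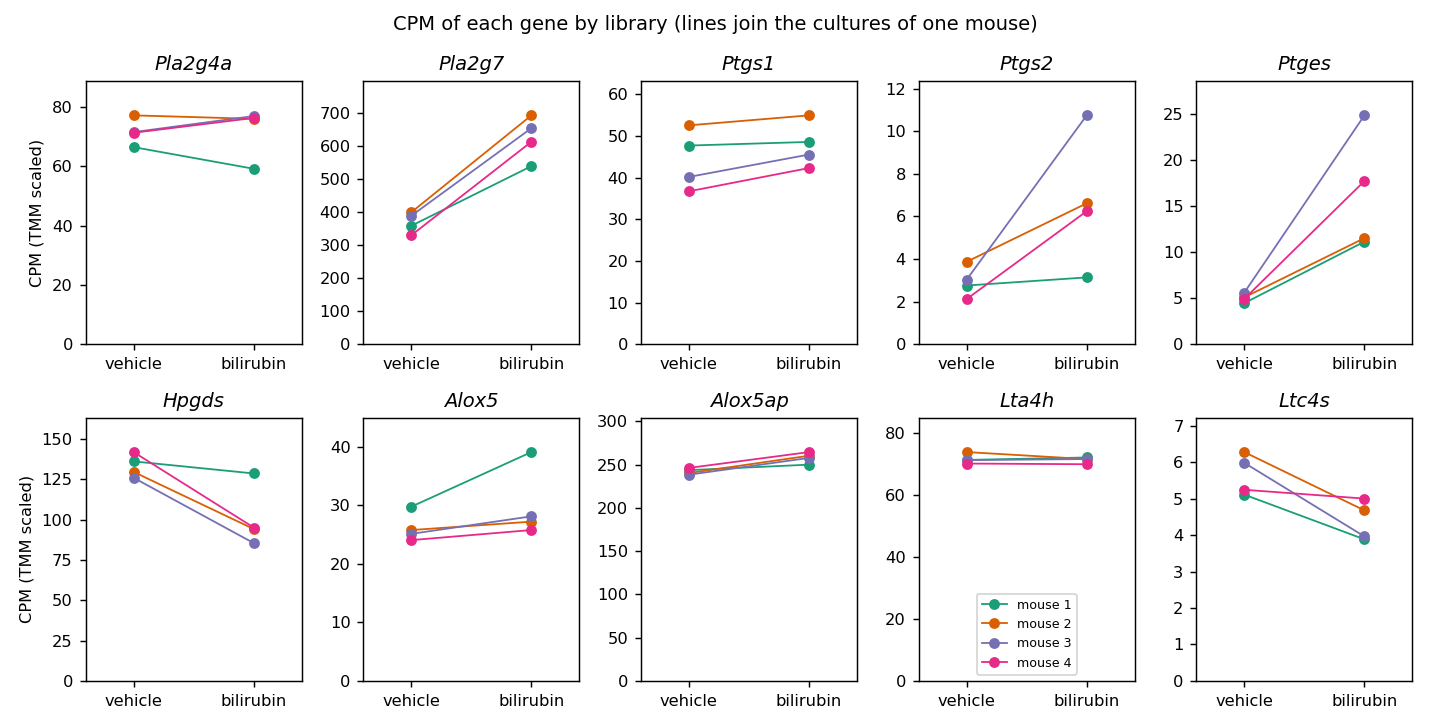
CPM of each gene (y axes from 0, 1 panel per gene) in the vehicle and bilirubin cultures, with lines joining the cultures of 1 mouse. The lines of *Pla2g7* and *Ptges* rise in all 4 mice, those of *Hpgds* fall least in mouse 1, from 136 to 129 CPM, and those of *Lta4h* are flat at 69.9 to 73.8 CPM.

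The terminal prostaglandin synthases moved in opposite directions. *Ptges* (ENSMUSG00000050737, chromosome 2, 30779483 to 30820196, minus strand), the inducible microsomal PGE2 synthase, was measured at 4.46, 5.09, 5.59 and 4.91 CPM with vehicle and at 11.1, 11.5, 24.9 and 17.7 CPM with bilirubin. The vehicle libraries lay close together, all bilirubin libraries were above them, and those of mice 3 and 4 were highest. The log2 fold change was 1.64 ± 0.16 (SE), or 3.123-fold (95% interval on the log2 scale 1.29 to 2.00, edgeR adjusted p = 5.88e-04). It passed in 13 of 13 alternative settings, with a log2 fold change of 1.45 to 1.82. Ptges-202, the transcript with a defined coding sequence, went from 1.89, 2.02, 2.24 and 1.88 TPM to 4.05, 4.36, 9.49 and 6.66 TPM, and its share of the gene was 55.1% ± 10.4 with vehicle and 46.8% ± 8.99 with bilirubin (SD, n = 4). The remainder was on short transcripts with no defined coding sequence.

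*Hpgds* (ENSMUSG00000029919, chromosome 6, 65094001 to 65121983, minus strand), the hematopoietic PGD2 synthase, was measured at 136, 130, 126 and 142 CPM with vehicle and at 129, 94.2, 85.5 and 95.1 CPM with bilirubin. It was lower with bilirubin in all 4 mice, but the bilirubin library of mouse 1 was within the vehicle range. The gene fell by 0.42 ± 0.077 (SE) on the log2 scale, or 1.34-fold (95% interval -0.60 to -0.24, edgeR adjusted p = 0.0141). Per mouse the log2 change was -0.08, -0.46, -0.56 and -0.58. The call was lost without mouse 2 (edgeR adjusted p = 0.0749), mouse 3 (0.123) or mouse 4 (0.0927), and without mouse 1 the log2 fold change was -0.54. Hpgds-201, its coding transcript, held 80.0% of its TPM with vehicle and 80.5% with bilirubin.

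*Ptgs2* and *Hpgds* thus shared a weak change in mouse 1, and in a model without the mouse both had an adjusted p of 0.05002, just above the threshold. Mouse 1 was also the one whose libraries were farthest apart in depth, and the part of this in its values was not tested. *Pla2g7* changed least in mouse 1 as well, by 0.59, whereas *Ptges* rose by 1.31 there, more than the 1.17 of mouse 2.

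**Figure D3:**
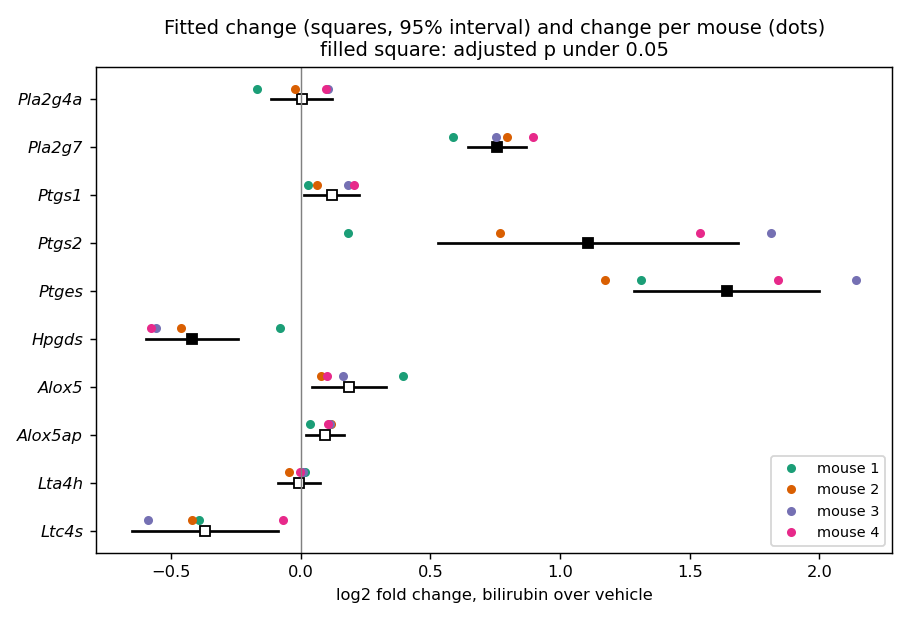
Log2 fold change of bilirubin over vehicle for the 10 genes (black squares, filled where the adjusted p is under 0.05, with 95% intervals) and the change in each mouse (colored dots). *Ptges* is farthest to the right at 1.64, *Hpgds* is on the left at -0.42, and the dots of *Ptgs2* are spread from 0.18 to 1.81.

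Because PGE2 and PGD2 synthases use the same substrate, their levels were also compared within libraries. The TPM of *Ptges* was 0.0375, 0.0604, 0.0643 and 0.0570 of that of *Hpgds* with vehicle in mice 1 to 4, and 0.171, 0.188, 0.466 and 0.276 with bilirubin. The groups did not overlap, and *Hpgds* remained the more abundant in all 8 libraries. The log2 ratio rose by 2.15, 1.62, 2.83 and 2.26, with a mean of 2.21 ± 0.49 (SD, n = 4 mice). An exact two-sided sign-flip permutation test gave p = 0.125, the smallest value that 4 pairs allow. As *Ptges* rose and *Hpgds* fell in all 4 mice, this value followed from those results and adds no evidence to them. For the cyclooxygenases, the TPM ratio of *Ptgs2* to *Ptgs1* was 0.0501, 0.0365, 0.0379 and 0.0313 with vehicle and 0.0347, 0.0628, 0.125 and 0.0821 with bilirubin. It was higher with bilirubin in mice 2, 3 and 4 and lower in mouse 1, the mouse with the short transcript in its vehicle library, and the mean log2 difference was 0.79 ± 0.94 (SD, n = 4 mice, exact sign-flip permutation p = 0.25). With CPM in place of TPM the difference was 0.94 (exact permutation p = 0.125). COX-1 transcripts outnumbered those of COX-2 in every library.

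**Figure D4:**
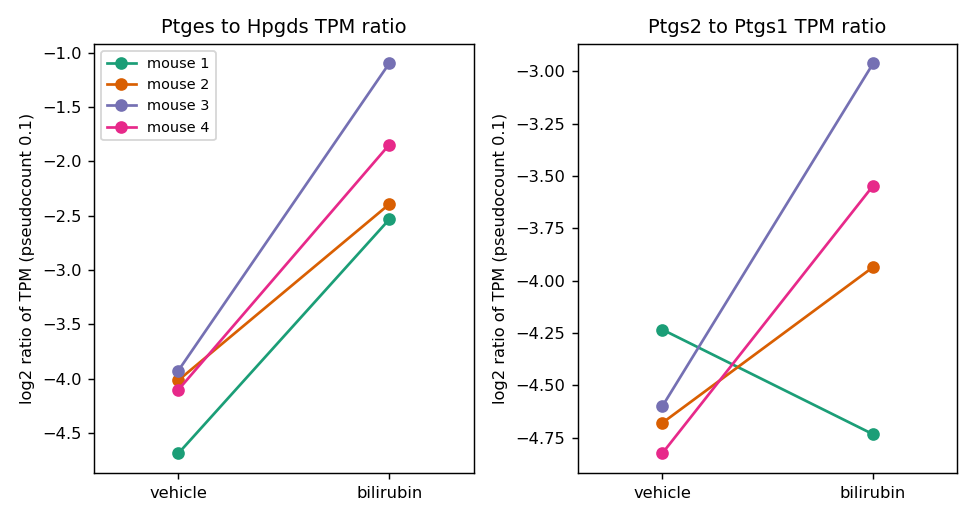
Log2 ratio of TPM, with a pseudocount of 0.1, of *Ptges* to *Hpgds* (left) and *Ptgs2* to *Ptgs1* (right) in each culture, with lines joining the cultures of 1 mouse. The left ratio rises in all 4 mice by 1.62 to 2.83, and the right one rises in 3 mice and drops in mouse 1.

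Among 6 PGH2-using synthases (*Ptges*, *Ptges2*, *Hpgds*, *Ptgds*, *Tbxas1* and *Ptgis*), *Ptges* held 1.90% ± 0.357 of the summed TPM with vehicle and 7.83% ± 3.21 with bilirubin (SD, n = 4). Its share was 1.38% to 2.14% over the vehicle and 5.09% to 12.4% over the bilirubin libraries, with no overlap. *Hpgds* held 35.0% ± 2.54 and 29.4% ± 4.55, and its shares overlapped. *Tbxas1*, the thromboxane synthase, held 53.8% ± 1.39 and 52.6% ± 4.33, and *Ptges2*, another PGE2 synthase, 9.21% and 10.2%. *Ptgis* and *Ptgds*, the prostacyclin and lipocalin-type PGD2 synthases, were each under 0.1% in every library. This set left out *Ptges3*, the cytosolic PGE2 synthase that is also a cochaperone, at 123 ± 2.17 TPM with vehicle and 125 ± 4.23 TPM with bilirubin, and *Akr1b3*, an aldose reductase that can make PGF2α, at 168 ± 6.25 and 155 ± 3.97 TPM (SD, n = 4). Both were more abundant than *Tbxas1*, and neither passed (edgeR adjusted p = 0.356 and 0.338). Among the 8 genes with these included, the shares of *Ptges* were 0.766% ± 0.135 and 2.92% ± 1.09, still with no overlap, and those of *Hpgds* 14.1% ± 1.12 and 11.1% ± 2.39. *Prxl2b*, from the list of prostanoid synthesis and breakdown below, was in neither sum. It was at 27.5 ± 2.92 TPM with vehicle and 31.1 ± 7.59 TPM with bilirubin (SD, n = 4) and did not pass (edgeR adjusted p = 0.245). All shares given are of transcripts, not of enzyme activity.

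In the leukotriene branch 0 of 4 genes passed by edgeR, and none by DESeq2 or limma, although 3 of them had an unadjusted p under 0.05, against 20.8% of all tested genes. *Alox5* (ENSMUSG00000025701, chromosome 6, 116387032 to 116438139, minus strand), which encodes 5-lipoxygenase, was measured at 29.8, 25.8, 25.1 and 24.1 CPM with vehicle and 39.1, 27.2, 28.1 and 25.8 CPM with bilirubin. In CPM it was higher with bilirubin in each mouse, most in mouse 1, and the groups overlapped. Its fitted log2 fold change was 0.19 (95% interval 0.042 to 0.33, edgeR adjusted p = 0.131). With the offset for transcript length it was 0.08 (edgeR adjusted p = 0.549). The mean TPM was 17.3 with vehicle and 17.8 with bilirubin, and mouse 3 did not rise in TPM.

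*Alox5ap* (ENSMUSG00000060063, chromosome 5, 149196003 to 149227762, plus strand), whose product FLAP hands arachidonic acid to 5-lipoxygenase, was measured at 244, 240, 238 and 246 CPM with vehicle and 250, 260, 258 and 264 CPM with bilirubin. In CPM all bilirubin libraries were above all vehicle libraries, but by little. In TPM the groups overlapped, and mouse 2 went from 669 TPM with vehicle to 645 TPM with bilirubin. The log2 fold change was 0.09 (95% interval 0.018 to 0.17) and did not pass (edgeR adjusted p = 0.145). Without mouse 1, where the change was 0.04, it was 0.11 and passed (edgeR adjusted p = 0.0382), within adjusted p values of 0.0382 to 0.428 over 13 alternative settings.

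*Lta4h* (ENSMUSG00000015889, chromosome 10, 93289210 to 93320749, plus strand), the hydrolase that makes LTB4, was the steadiest in CPM, with 70.1 to 73.8 CPM in vehicle and 69.9 to 72.0 CPM in bilirubin libraries. The log2 fold change was -0.01 (95% interval -0.09 to 0.07, edgeR adjusted p = 0.949). *Ltc4s* (ENSMUSG00000020377, chromosome 11, 50127288 to 50129443, minus strand), which makes LTC4, was measured at 5.11, 6.28, 5.98 and 5.24 CPM with vehicle and 3.88, 4.68, 3.96 and 5.00 CPM with bilirubin. The bilirubin libraries were all below the vehicle libraries, with mouse 4 close to no change. Its log2 fold change of -0.37 (95% interval -0.65 to -0.09) did not pass (edgeR adjusted p = 0.126), and neither did it in any of 13 alternative settings.

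The transcripts of *Ltc4s* did not move alike. Ltc4s-202, the main coding transcript, was at 9.89, 14.0, 13.9 and 13.0 TPM with vehicle and 11.8, 12.4, 9.97 and 12.9 TPM with bilirubin, so the groups overlapped. Ltc4s-207, annotated as a retained intron, was at 3.59, 3.18, 1.41 and 1.82 TPM with vehicle and 0.381, 1.22, 0.947 and 0.108 TPM with bilirubin, lower in each mouse. The coding share was 70.0% ± 7.12 with vehicle and 86.1% ± 4.71 with bilirubin (SD, n = 4). These differences were not tested, and a transcript with so few reads is assigned with uncertainty.

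*Mgst2*, a microsomal glutathione transferase that can also make LTC4, rose in the same libraries, from 10.4 ± 2.36 to 17.5 ± 4.83 CPM (SD, n = 4), a log2 fold change of 0.73 ± 0.087 (SE, edgeR adjusted p = 0.00184). Of the summed TPM of the LTA4-using enzymes *Lta4h*, *Ltc4s* and *Mgst2*, *Ltc4s* held 15.8% ± 0.728 with vehicle and 10.5% ± 1.14 with bilirubin, and *Mgst2* 26.4% ± 2.82 and 39.7% ± 8.10 (SD, n = 4). The shares of *Ltc4s* did not overlap between groups and those of *Mgst2* did. These shares count all transcripts of a gene, while the main coding transcript Ltc4s-202 overlapped between groups. The share of *Ltc4s* also depends on *Mgst2*, which went from 30.4 to 52.8 TPM in the same sum. *Mgst3*, a related enzyme with LTC4 synthase activity that this set left out, was at 106 ± 7.33 TPM with vehicle and 87.2 ± 7.34 TPM with bilirubin (SD, n = 4), above *Lta4h*. It was lower with bilirubin in all 4 mice and did not pass, with a log2 fold change of -0.24 (95% interval -0.39 to -0.09, edgeR adjusted p = 0.06905). With *Mgst3* included, *Ltc4s* held 8.24% ± 0.870 and 6.26% ± 0.346, still with no overlap, and *Mgst2* 13.8% ± 2.30 and 24.0% ± 5.73.

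The other genes of eicosanoid metabolism were followed in 7 lists with 59 tested genes, of which 10 rose and 3 fell. Over all tested genes 4.49% rose and 3.04% fell, and the counts of every list below stand against these shares. The lists are short, and whether they differ from these shares was not tested. The median log2 fold change of the 59 genes was 0.06, against -0.0018 for all tested genes. Among 20 tested genes of substrate release and reacylation, 2 rose and 2 fell, with a median of -0.03. *Acsl1* and *Acsl4*, which couple fatty acids to coenzyme A, arachidonic acid preferably in the case of *Acsl4*, rose by 0.52 and 0.30 on the log2 scale (edgeR adjusted p = 0.00363 and 0.00717). *Plaat3* and *Pla2g15*, phospholipases other than *Pla2g4a*, fell by 0.59 and 0.23 (edgeR adjusted p = 0.00483 and 0.0456). *Acsl4* lost its call without mouse 3 (edgeR adjusted p = 0.0830) or mouse 4 (0.0616), and *Pla2g15* without mouse 2 (0.172), mouse 3 (0.233) or mouse 4 (0.189).

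Among 11 tested genes of prostanoid synthesis and breakdown, 2 rose and 1 fell, with a median of 0.04. *Ptgr1*, a reductase that inactivates prostaglandins and LTB4, rose by 0.49 (edgeR adjusted p = 0.0216). *Akr1c18*, an aldo-keto reductase with close paralogs that can share its reads, rose by 2.01 from 3 to 8 counts in vehicle libraries to 10 to 34 in bilirubin libraries (edgeR adjusted p = 0.0313). *Tbxas1* fell by 0.19 (edgeR adjusted p = 0.0268). None of the 3 passed without mouse 3, with adjusted p of 0.164, 0.164 and 0.153, or without mouse 4, with 0.131, 0.181 and 0.109, and *Ptgr1* (0.112) and *Tbxas1* (0.0673) did not pass without mouse 2. With the transcript length offset 0 genes of this list passed (0.0516 for *Ptgr1*, 0.0628 for *Akr1c18* and 0.0838 for *Tbxas1*). Of 7 tested prostanoid receptors and transporters 0 passed by edgeR, DESeq2 or limma, 1 had an unadjusted p under 0.05, and the median was 0.13. Without mouse 1, 2 of them passed by edgeR, and with no filter 1 did. Among them *Ptger4* and *Ptger2*, receptors of PGE2, were at 25.4 and 12.9 CPM with vehicle and 27.1 and 14.1 CPM with bilirubin.

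Among 8 tested genes of leukotriene processing, 2 rose and 0 fell, with a median of 0.13. The number past the threshold was 4 with DESeq2, 5 with no filter, 3 without mouse 1 and 1 without pairing by mouse. Besides *Mgst2*, this was *Abcc1*, the transporter that exports LTC4, which rose by 0.40 (edgeR adjusted p = 0.00249) and passed in 13 of 13 alternative settings. Of the 2 tested leukotriene receptors 0 passed by edgeR, DESeq2 or limma, 1 had an unadjusted p under 0.05, 1 passed with no filter and their median was 0.27, and *Cysltr1* went from 14.2 to 17.5 CPM (edgeR adjusted p = 0.193).

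Of 4 tested genes of the other lipoxygenases and resolving mediators 3 rose, with a median of 0.95. The 3 did not include *Alox15*, the only lipoxygenase tested in this list. It had 3 to 13 counts per library and a log2 fold change of 0.49 (edgeR adjusted p = 0.618). *Cmklr1*, a receptor of chemerin and resolvin E1, went from 9.58 ± 0.237 to 26.3 ± 7.77 CPM (SD, n = 4), a log2 fold change of 1.42 ± 0.15 (SE, edgeR adjusted p = 8.22e-04). *Gpr18* rose by 1.69 at 4 to 9 counts in vehicle and 11 to 34 in bilirubin libraries (edgeR adjusted p = 0.0427), and *Ephx1*, an epoxide hydrolase, by 0.33 (edgeR adjusted p = 0.0114). *Ephx1* did not pass without mouse 3 (0.0998) or mouse 4 (0.0662), nor *Gpr18* without mouse 2 (0.104), mouse 3 (0.256) or mouse 4 (0.156). *Gpr18* also did not pass with DESeq2 (0.0989) or limma-trend (0.0600), and with the transcript length offset neither passed (0.0812 for *Gpr18*, 0.0689 for *Ephx1*). Of 7 tested genes of platelet-activating factor, the substrate of the *Pla2g7* product, 1 rose and 0 fell, with a median of 0.10. *Lpcat2*, an enzyme that makes platelet-activating factor, rose by 0.64 (edgeR adjusted p = 0.00408, and 0.0537 without mouse 3), while *Ptafr*, its receptor, went from 93.6 to 107 CPM and did not pass (edgeR adjusted p = 0.170).

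**Figure D5:**
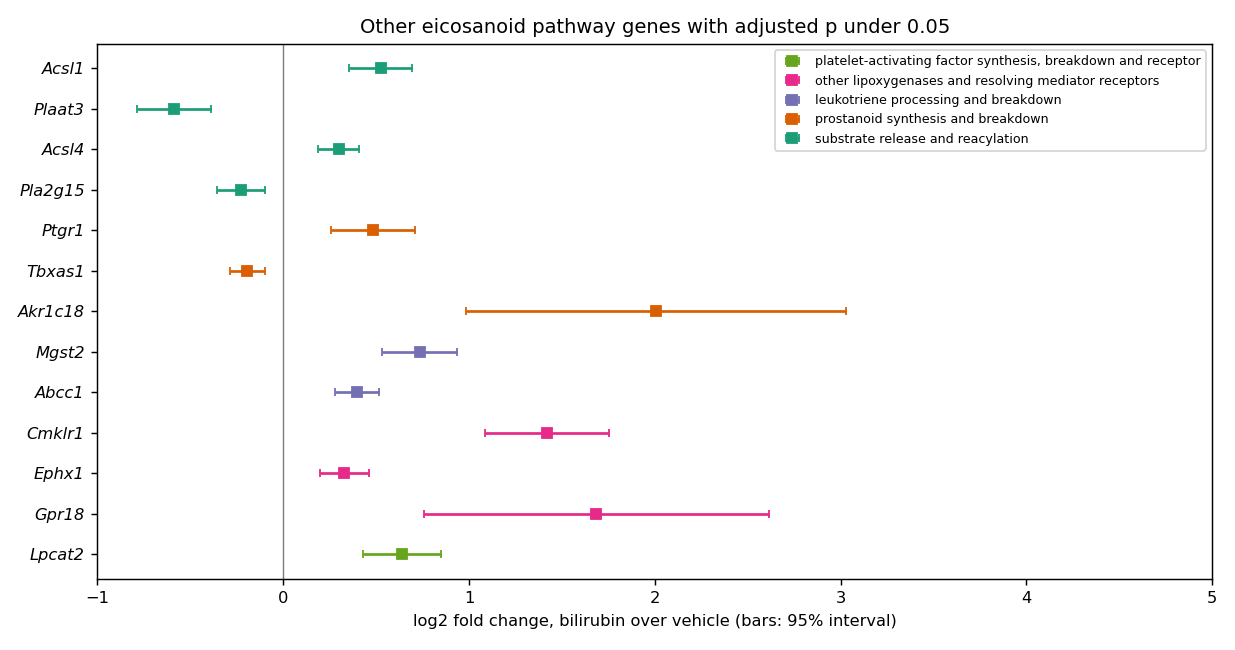
Log2 fold change with 95% intervals of the 13 other pathway genes with an adjusted p under 0.05, colored by list. The 10 genes that rose lie to the right of the line at 0 and *Plaat3*, *Pla2g15* and *Tbxas1* to its left, and the intervals of *Akr1c18* and *Gpr18*, which had few counts, are the widest.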

How the data were processed

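RNA was sequenced from 8 libraries, and cultures were grouped by treatment and paired by the culture number in the labels. The labels do not name the mouse. That cultures with the same number came from 1 mouse was taken from the study, which used separate mice and the mouse identifier as a covariate. Over all genes, deviations from the group means correlated at 0.0862 on average for cultures of 1 mouse (-0.0053 for mouse 4, 0.108 to 0.134 for the others) and at -0.028 for those of different mice, with a highest value of 0.0751. The authors trimmed reads with Trim Galore 0.6.7 and cutadapt 3.4, aligned them with STAR 2.7.9a to GRCm39 and quantified transcripts with Salmon 1.10.1 (versions also in the submitters' processing notes). They deposited estimated counts per gene, summed from transcripts and not normalized, beside TPM and estimated counts of every transcript in each library.

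Rounded counts were fitted by edgeR 4.0.16 (R 4.3.3) with TMM scaling, filterByExpr (at least 10 counts, 15 in total), mouse and treatment in the model, the quasi-likelihood test and Benjamini-Hochberg adjustment over 13722 genes, with a threshold of 0.05. The study used limma, which is here an alternative. Standard errors were derived from the F statistics, and 95% intervals from the degrees of freedom of that test. Per-mouse changes are differences of log2 CPM with a prior count of 2. Gene TPM was summed over transcripts, and ratios used a pseudocount of 0.1. Alternatives were no replicate block, DESeq2 1.42.0, limma 3.58.1 (voom or trend), other scalings, other filters, a transcript length offset and each mouse left out in turn, 13 in all. Positions and transcript types are from GENCODE for GRCm39.

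The 10 genes, the pathway and marker lists and the tests were chosen with earlier results of these data known. Of the other pathway genes, up to 5 per list with the smallest adjusted p among those that passed are named. The receptors *Ptger4*, *Ptger2*, *Cysltr1* and *Ptafr* were named besides. So were the enzymes *Ptges2*, *Ptges3*, *Akr1b3*, *Prxl2b*, *Mgst3*, *Ptgis*, *Ptgds* and *Alox15*. The procedure was tested on simulated data with 13540 genes tested. There edgeR recovered 86% of planted log2 changes of 0.5, 84% of those of 1 and 100% of those of 2 or 3. It also called 20 genes that had no planted change. Changes were planted in only a small part of the genes, all with a mean CPM above 1. The 20 are thus few of the genes tested but a larger part of the genes called. Recovery at lower levels was not examined. The edgeR p-values set the change against the spread of the within-mouse changes over 4 mice, estimated in part from all tested genes. That spread also holds differences between cultures and libraries. Raw reads and other experiments of the study were not analysed here.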

Additional observations from a re-analysis of the deposited data

Results flagged for a closer look

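Groups of 4 values (the vehicle libraries, the bilirubin libraries or the per-mouse changes of a gene) were examined for a single value far from the other 3. This was so in 2 of 30 groups, and chance alone gives about 1 in 20. For *Pla2g4a*, the bilirubin library of mouse 1 had a log2 CPM of 5.89, and its gap to the nearest other bilirubin library was 0.954 of the range of the group. For *Alox5ap*, the change in mouse 1 was 0.0372 on the log2 scale, below the changes of the other mice, with a gap of 0.846 of the range.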

How the results depend on the processing

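Over 13 alternatives, the 10 genes gave 130 comparisons with the values reported. In 120 the direction and the side of the threshold were the same, in 9 (*Ptgs2* and *Hpgds*) the call was lost, in 1 (*Alox5ap*) it was gained, and in 0 the direction of a called value reversed. The 13 other named genes gave 167 comparisons, of which 30 lost the call and 0 reversed. *Akr1c18* and *Gpr18* had no value with a CPM above 1 in 4 libraries, which leaves them out. Without the replicate block, that is without pairing by mouse, 2 of the 10 genes passed in place of 4 and 0 in place of 1 fell, since *Ptgs2* and *Hpgds* were at an adjusted p of 0.05002, and 228 genes fell in the whole table in place of 417. Of the other named genes, *Mgst2* (adjusted p = 0.0679), *Ptgr1* (0.106) and *Pla2g15* (0.315) also lost their calls by edgeR there. Leaving out 1 mouse at a time gave 2 to 5 of the 10 genes past the threshold and 0 to 1 lower. Over all genes it gave 265 to 1026 higher and 112 to 884 lower, against 616 and 417. With the transcript length offset 372 genes were higher and 207 lower, and with no filter 774 were lower. The causes were not tested. Scaling by library size alone moved the median log2 fold change of all genes by -0.03. Both TPM ratios kept their mean direction under another pseudocount (0.01 or 1), with CPM and without any mouse, and 4 pairs cannot give a p under 0.125. *Ptgs2*, *Ptges* and *Ltc4s* had the lowest counts of the 10 genes, 90 to 997 per library, and counting error was not separated from the spread between mice. The shares with *Ptges3*, *Akr1b3* and *Mgst3* included were added after seeing the data.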
